A study of Rattus norvegicus with 18 samples.

Results

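The Dlk1-Dio3 region of rat chromosome 6 is an imprinted locus, and 5 of its miRNAs were followed here through development of the cerebral cortex: rno-miR-127, rno-miR-134, rno-miR-323, rno-miR-409-5p and rno-miR-494. They were chosen because the study gives their mature sequences through its primers or its list of nucleotide changes. They are 5 of 692 unique mature sequences that were counted, and all 5 are among the 477 that held enough reads to be tested. Small RNA was sequenced from Sprague Dawley rats, with no treatment or genotype beyond the strain named in the labels, at 8 stages: embryonic days 10, 13 and 17 (E10, E13, E17) and postnatal days 0, 3, 7, 14 and 28 (P0 to P28). There were 2 independent tissue samples at P0 and 1 at every other stage, and each of the 9 was sequenced in 2 technical runs. E10 and E13 tissue is labelled forebrain and all later tissue somatosensory cortex, so that stage and tissue cannot be told apart for these early samples. Samples were grouped as early (E10 and E13, n = 2), middle (E17, both P0 samples and P3, n = 4) and late (P7, P14 and P28, n = 3).

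The locus takes its name from the genes at its ends, Dlk1, a transmembrane protein of the Notch ligand type, and Dio3, a deiodinase that inactivates thyroid hormone. These protein-coding genes are expressed from the paternal chromosome, while Meg3, Mirg and other long non-coding RNAs, and the miRNAs cut from such transcripts, are expressed from the maternal one. Many of the miRNAs are processed from long transcripts, and they are abundant in brain and in the embryo. A mature miRNA pairs with its target messages mainly through its seed, bases 2 to 8 from the 5′ end, and each hairpin can yield one mature strand from its 5′ arm and one from its 3′ arm.

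The mature sequences are shown first because every level below is a count of reads that match them. They are written 5′ to 3′ as in RefSeq on build GRCr8, with the seed in capitals.
rno-miR-127: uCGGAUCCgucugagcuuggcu
rno-miR-134: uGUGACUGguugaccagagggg
rno-miR-323: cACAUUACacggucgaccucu
rno-miR-409-5p: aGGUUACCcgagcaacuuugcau
rno-miR-494: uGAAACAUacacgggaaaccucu
The 5 seeds differ from each other, and none is shared with another mature sequence of the table. miR-127, miR-323 and miR-494 come from the 3′ arm of their hairpins, and miR-134 and miR-409-5p from the 5′ arm. All 5 lie on the plus strand. The hairpin of miR-127 (chr6:134328454-134328550) stands apart from the others, within the span of Rtl1, a retrotransposon-derived gene that is transcribed from the opposite strand. The other 4 lie within 32.2 kb of each other, from Mir323 (chr6:134546944-134547029) and Mir494 (chr6:134550115-134550197) to Mir134 (chr6:134570313-134570385) and Mir409 (chr6:134579185-134579261). This group starts 218 kb downstream of Mir127 and its hairpins lie within the spans of annotated long non-coding RNA genes. Dlk1 ends upstream at position 134199779 and Dio3 starts downstream at position 135107072.

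Libraries held between 4899010 and 16590379 clean reads, and reads of RefSeq mature miRNAs made up 63.1% to 86.4% of them. Levels are given as reads per 1000000 clean reads (TPM in the terms of the study), as the mean of the 2 runs unless a run is named. The runs agreed unevenly: over all miRNAs the median absolute difference between runs was 0.53 (log2) at P3 and 1.42 at P0 replicate 1. The E10 library of run 2 stood apart in the 3′ ends of its reads, as described below. Scaling also matters for the early samples. The TMM factor, which edgeR uses to set the bulk of miRNAs level between samples, was 2.61 at E10, 1.54 at E13 and 0.53 to 1.04 elsewhere. The median middle minus early difference of all 477 miRNAs was therefore 0.03 (log2) with TMM and -1.44 per clean read, and the late minus early medians were -0.12 and -1.12. The brain miRNA miR-9a-5p was present in every sample at 11234 (P28) to 66760 TPM (E10). miR-124-3p was not among the sequences used and was not counted. It is therefore outside the shares and the sets of all miRNAs given here, although the study lists miR-124 among its most abundant miRNAs. Among miRNAs of other tissues, the muscle miRNAs miR-133a-3p, miR-1-3p and miR-206-3p reached at most 3.16, 322.6 (P28) and 1405 (P14) TPM, the red cell miRNA miR-451-5p reached 1049 TPM (E10) and ranged down to 30.4, and the liver miRNA miR-122-5p lay between 22.7 and 98.7. The part of these other tissues in the results below was not tested.

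On the TPM scale the mean of the middle samples was below both the early and the late mean for miR-127, miR-134, miR-323 and miR-409-5p, while miR-494 was highest in the early samples and as low in the late as in the middle ones (means of 630, 59.0 and 51.0 TPM). Both early samples lay above all 4 middle samples for miR-127, miR-134, miR-409-5p and miR-494, as for 45.9% of all miRNAs tested. All 3 late samples lay above the 4 middle samples for miR-127, miR-323 and miR-409-5p, against 26.8% of all miRNAs. With TMM scaling the late samples of the same 3 miRNAs again lay above the middle ones (19.5% of all), whereas no member had both early samples above the middle ones (15.7% of all). Late samples lay wholly above early ones for none of the 5 in TPM (19.1% of all) and for miR-127 and miR-409-5p with TMM (37.7% of all). Early samples lay wholly above late ones for miR-494 on both scales, as for 50.5% of all miRNAs in TPM and 36.5% with TMM.

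miR-127, which is fully complementary to Rtl1 because it is cut from the strand opposite that gene, was the most abundant of the 5. The early samples held 7178 TPM (E10) and 5070.25 TPM (E13), and the middle ones 1706, 1956, 2582 and 4477 TPM, in the order E17, P0 replicate 1, P0 replicate 2 and P3. It was 6847 TPM at P7, 9974 at P14 and 8255 at P28. P14 was therefore the highest sample and E17 the lowest, with a 5.85-fold span between them. The P0 mean of 2269 TPM had an SD of 443 (n = 2), so that E17 and P0 could not be ordered. At E10 the runs gave 3331 and 11025 TPM, and the place of E10 in the order rests on run 2.

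miR-323 also lay higher in the late than in the middle samples, but it did not climb through the middle samples as miR-127 did. It stood at 1193.2 TPM at E10 and 3697 at E13. In the middle samples it was 867 (E17), 1494 and 629 (P0) and 1056 TPM (P3), and in the late samples 3315, 3722 and 2348 TPM (P7, P14, P28). E13 and P14 could not be ordered, since run 1 gave 4079.8 at E13 and 3091 at P14, and run 2 gave 3315 and 4354.

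miR-134, known from work in rat hippocampal neurons for limiting dendritic spine size through Limk1, was low and variable. The early samples held 259 and 399 TPM and the middle ones 66.6 (E17), 155 and 38.9 (P0) and 73.9 TPM (P3). It was at 277 TPM at P7, 336 at P14 and 53.9 at P28, so that the P28 sample fell among the middle samples and the late group overlapped them. The 2 P0 samples differed by 1.99 (log2), and within P0 replicate 1 the runs gave 265 and 44.3 TPM. E17, P0, P3 and P28 therefore could not be ordered, and in both runs these samples lay below E13.

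miR-409-5p climbed through the late samples. It held 132 TPM at E10, 233 at E13, 106 at E17, 101 and 47.2 in the P0 samples and 84.3 at P3. It then reached 224 TPM at P7, 474 at P14 and 870 at P28, and this order was the same in both runs. Run 1 gave higher values than run 2 in all 9 samples, by 2.12-fold to 4.21-fold, so that P28 was 1391 TPM in run 1 and 349 in run 2. P0 replicate 2 was lowest and P28 highest in each run.

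miR-494 had the widest range of the 5. It held 243 TPM at E10 and 1017 at E13, where run 1 gave 1584 and run 2 gave 450 TPM. The middle samples held 90.9 (E17), 120 and 14.6 (P0) and 10.2 TPM (P3), and the late ones 59.7, 56.4 and 36.9 TPM. E13 was 99.7-fold above P3, where only 51 reads in run 1 (4.62 TPM, 95% Wilson interval 3.52 to 6.08) and 207 in run 2 carried the value. The P0 samples differed by 3.05 (log2), and middle and late samples overlapped, while both early samples lay above all the others.

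**Figure D1:**
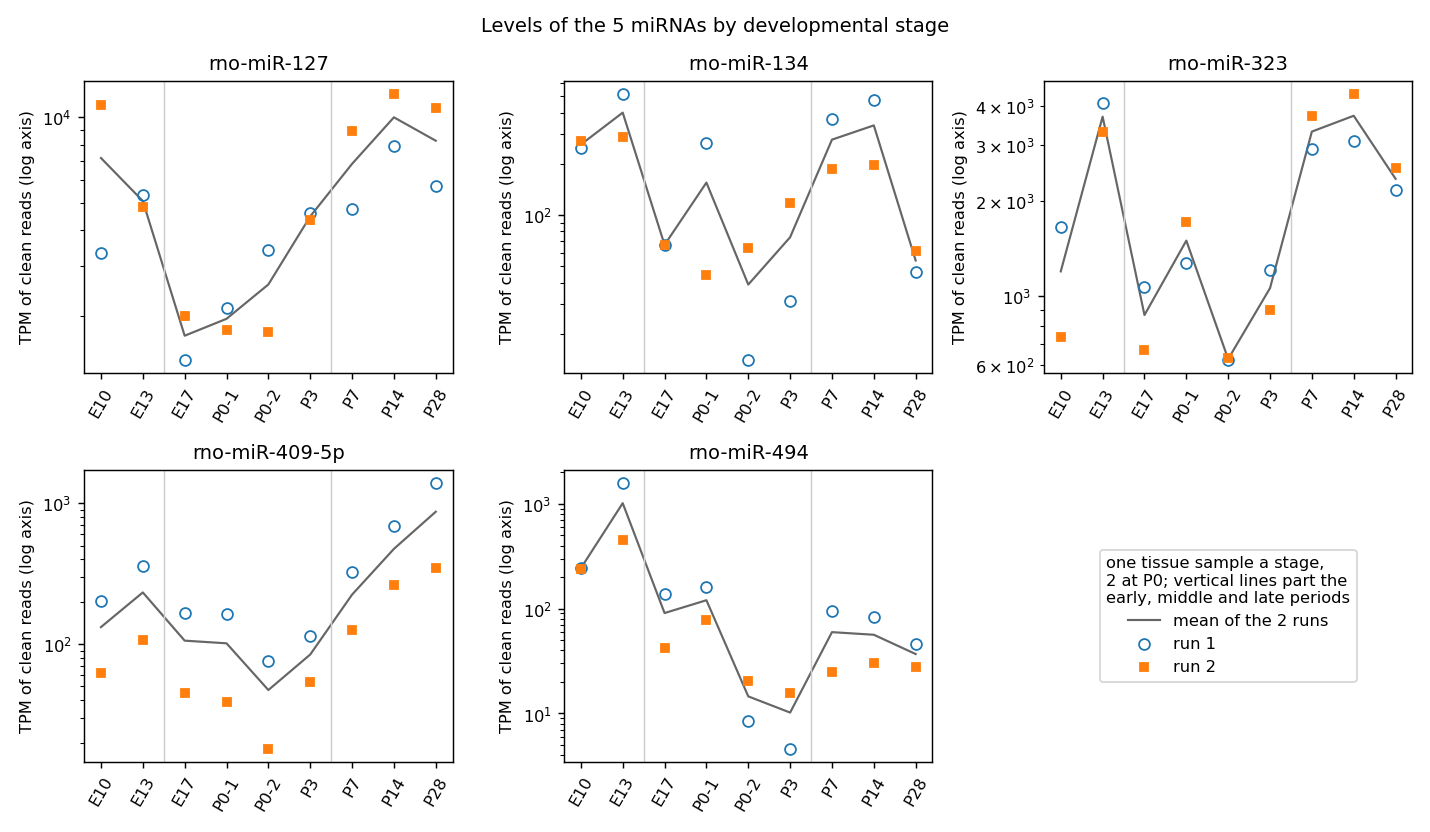
Levels of the 5 miRNAs in TPM (log axis) in each of the 9 tissue samples, with run 1 as circles, run 2 as squares and the mean of the runs as a line. The late samples lie above the middle ones for miR-127, miR-323 and miR-409-5p, which is at 870 TPM at P28, and miR-494 is highest at E13 with 1017 TPM.

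Whether the levels changed with stage was tested in edgeR (quasi-likelihood test, TMM, Benjamini-Hochberg adjustment over all 477 miRNAs) on the reads of both runs summed, with the 9 tissue samples as the units. Along the order of the 8 stages, miR-409-5p rose by 0.45 per stage on the log2 scale (SE 0.095, adjusted p = 0.0022) and miR-127 by 0.30 (SE 0.097, adjusted p = 0.022), and miR-494 fell by 0.51 (SE 0.157, adjusted p = 0.019). miR-323 (0.28, SE 0.120, adjusted p = 0.077) and miR-134 (0.04, SE 0.127, adjusted p = 0.79) did not pass the threshold of 0.05. The call of miR-127 was lost without E17, P3, P7 or P14 (0.23 to 0.34 over the 9 omissions) and that of miR-494 without E13 (-0.26, adjusted p = 0.12). Without TMM the slope of miR-127 was 0.13 (adjusted p = 0.34). In run 1 alone miR-127 (0.24, adjusted p = 0.15) and miR-494 (-0.52, adjusted p = 0.080) did not pass. Thus 3 of 5 passed, against 42.8% of all miRNAs tested. The share that rose was 19.5% over all miRNAs and the share that fell was 23.3%.

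From middle to late, where 30% of all miRNAs passed, miR-409-5p rose 4.17-fold (log2 2.06, SE 0.55, adjusted p = 0.012) and miR-127 rose 2.37-fold (log2 1.25, SE 0.45, adjusted p = 0.0498). miR-323 had a difference of the same size as miR-127, 1.26 (SE 0.53), with adjusted p = 0.080, and miR-134 had 0.91 (SE 0.57) with adjusted p = 0.22. miR-494 was at -0.68 (SE 0.73, adjusted p = 0.48). The call of miR-127 stood at the threshold and was lost without E17, either P0 sample, P7, P14 or P28, with differences of 0.87 to 1.51 over all 9 omissions, and that of miR-409-5p was lost without P28 (1.45, adjusted p = 0.093). In run 1 alone miR-127 was at 0.63 (adjusted p = 0.46). DESeq2 and edgeR without TMM each called 3 of the 5 higher, as for 18.9% of all miRNAs. All 5 tested muscle miRNAs of 9 counted (miR-1, miR-1b, miR-133 and miR-206) rose between the same samples, by 3.04 (miR-1b, adjusted p = 0.0049) to 5.12 (miR-133a-3p, adjusted p = 0.0021) on the log2 scale. Their reads summed to 56.3 to 339.1 TPM in the middle and 1336 to 2840 TPM in the late samples. The oligodendrocyte miR-219a-2-3p rose by 6.28 (adjusted p = 0.0016), from 6.30 to 76.8 TPM in the middle samples to 1688 TPM or more in the late ones, whereas the other miR-219a products counted, miR-219a-1-3p and miR-219a-5p, were at -3.41 (adjusted p = 0.0030) and 0.62 (adjusted p = 0.49). The part of these miRNAs in the result was not tested.

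Between early and middle samples, where 23.3% of all miRNAs passed, miR-494 alone of the 5 did so, with a 4.81-fold fall (log2 -2.27, SE 0.78, adjusted p = 0.047), as 12.4% of all fell, and the other 4 ranged from -0.73 to 0.30 with adjusted p of 0.45 or more. Without E13 the difference of miR-494 was -0.49 (adjusted p = 0.72), and the call was also lost without P0 replicate 2, P3 or P28 and in run 1 alone (-2.72, adjusted p = 0.15). Per clean read and without TMM all 5 were lower in the middle samples, with differences of -1.09 (miR-409-5p) to -3.37 (miR-494) on the log2 scale, next to the median of -1.44 over all miRNAs. Of the 5, 3 were called lower in that fit, as for 43.4% of all miRNAs. The direction of miR-127, miR-323 and miR-409-5p in this contrast thus turns with the scaling. Among miRNAs of other tissues, picked after their values were seen, all 3 tested mesenchymal ones of 4 counted (miR-199a and miR-214) fell, by 4.40 to 6.80 on the log2 scale, and their sum went from 30043 and 41386 TPM in the early samples to between 230.03 and 1011 in the middle ones. The 3 tested epithelial ones of 7 counted (miR-205, miR-200c-3p and miR-200b-5p) also fell, by 2.99 to 5.79, from sums of 22.9 and 59.5 TPM to 2.39 or less. Of the miR-219a products, miR-219a-1-3p (-2.35, adjusted p = 0.016) and miR-219a-5p (-2.44, adjusted p = 0.029) fell, and miR-219a-2-3p did not pass (-0.76, adjusted p = 0.55). Of the 5 tested muscle miRNAs, miR-133a-3p alone passed (-3.02, adjusted p = 0.031). The part of all these miRNAs in the fall of miR-494 was not tested.

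Comparing the ends of the series, miR-494 was 7.69-fold lower in late than in early samples (log2 -2.94, SE 0.87, adjusted p = 0.013). miR-409-5p was 4.91-fold higher (2.29, SE 0.71, adjusted p = 0.018) and miR-127 was 2.92-fold higher (1.54, SE 0.57, adjusted p = 0.039). miR-323 (1.27, SE 0.67, adjusted p = 0.12) and miR-134 (0.18, SE 0.69, adjusted p = 0.83) did not pass. Of all miRNAs 47.4% passed in this contrast, 20.5% higher and 26.8% lower. Without TMM the differences of miR-127 and miR-409-5p were 0.50 (adjusted p = 0.43) and 1.45 (adjusted p = 0.11), and without E13 that of miR-494 was -1.18 (adjusted p = 0.30). The call of miR-494 was also lost without P28 (-2.80, adjusted p = 0.0502), that of miR-409-5p without E10 (1.54) or P28 (1.69), and that of miR-127 in every omission but that of P0 replicate 2 (1.18 to 1.59 over the 9). In run 1 alone none of the 3 passed, with 1.14 for miR-127 (adjusted p = 0.25), 2.16 for miR-409-5p (0.063) and -2.94 for miR-494 (0.084). In run 2 alone 1 of the 5 was called higher and 1 lower (17.3% and 28.9% of all), so that 1 rise was lost there too. Of the tested muscle miRNAs 3 of 5 also rose from early to late, miR-206-3p by 3.30 (adjusted p = 0.034), miR-1b by 2.18 (adjusted p = 0.039) and miR-133b-3p by 3.73 (adjusted p = 0.0094). miR-219a-2-3p rose by 5.53 (adjusted p = 0.0019), to 10432 TPM at P28, and the other miR-219a products, miR-219a-1-3p and miR-219a-5p, were at -5.76 (adjusted p = 0.00037) and -1.82 (adjusted p = 0.073). All 3 mesenchymal and 3 epithelial miRNAs were lower in the late samples, and the part of these miRNAs was not tested.

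**Figure D2:**
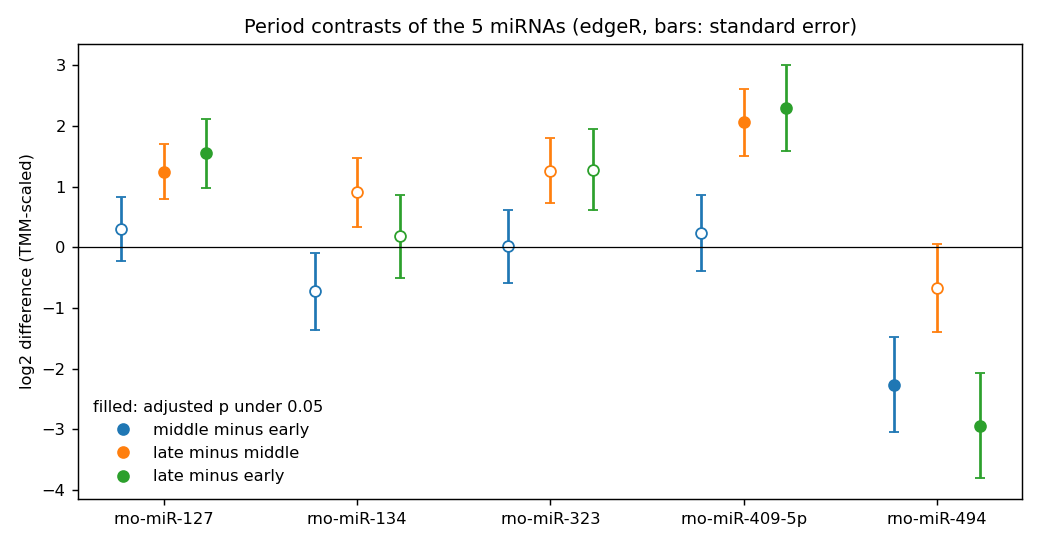
Log2 differences between periods for the 5 miRNAs after TMM scaling, with standard errors, filled where the adjusted p was under 0.05. miR-409-5p is 2.06 higher in late than middle samples and miR-494 is 2.94 lower in late than early samples, while no contrast of miR-134 or miR-323 is filled.

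The members of the locus did not keep a fixed proportion to each other. The ratios are of TPM averaged over the 2 runs, which TMM scaling does not enter, and the runs differed. The reads of miR-409-5p over those of miR-494 went from 0.229 at E13 to 23.6 at P28, a span of 6.69 on the log2 scale. At P28 run 1 gave 30.2 and run 2 gave 12.6. miR-127 exceeded miR-494 4.99-fold at E13 (3.35 and 10.8 in the runs) and 439-fold at P3, where run 1 gave 998 from the 51 reads of miR-494 and run 2 gave 275. miR-127 was between 1.31-fold (P0 replicate 1) and 6.02-fold (E10) above miR-323, the smallest span of the run averages, at 2.20 (log2). At E10 this ratio was 2.02 in run 1 and 14.9 in run 2, the library with different 3′ ends, and in run 2 alone the span was 3.85. miR-323 and miR-494 are the closest neighbours on the chromosome, 3.17 kb apart, and their ratio spanned 4.83 (log2), whereas miR-127 and miR-409-5p, at the far ends, spanned 2.53.

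Over the 9 tissue samples the Pearson correlation of log2(TPM + 1) was highest for miR-323 with miR-409-5p (r = 0.79), miR-134 with miR-323 (0.74) and miR-127 with miR-409-5p (0.73). It was lowest for miR-127 with miR-494 (0.06) and miR-409-5p with miR-494 (0.21), and with TMM scaling these coefficients were -0.62 and -0.26. The median over the 10 pairs was 0.58, beside 0.67 for the 37 miRNAs of the locus with a mean of at least 50 TPM and 0.21 for all 192 such miRNAs. With TMM scaling these medians were 0.29, 0.53 and 0.03. The samples share a stage order, and the early ones a tissue, so these coefficients describe likeness along development and carry no test. When single samples were left out, miR-134 with miR-409-5p ranged from 0.06 to 0.87.

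Among miRNAs with a mean of at least 50 TPM, the 3 that ran most like each member were taken by Pearson correlation over the 9 samples. For miR-323 all 3 came from the locus: miR-495 (r = 0.97), miR-382-3p (0.96) and miR-496-3p (0.95). miR-127 was followed most closely by miR-1b (0.949), a miRNA of the muscle miR-1 family, the locus miRNA miR-433-3p (0.949), whose hairpin also lies opposite Rtl1, and miR-329-5p (0.94). For miR-134 they were miR-488-3p (0.86), miR-382-3p (0.85) and miR-665 (0.84), the latter pair from the locus. miR-409-5p ran with miR-219a-2-3p (0.96), an oligodendrocyte miRNA, miR-378a-3p (0.94) and miR-323-5p (0.93), of which the last alone is in the locus. The 3 nearest to miR-494, miR-3559-5p (0.95), miR-7a-5p (0.94) and miR-135a-3p (0.93), all lie outside it. In all, 8 of these 15 places were held by miRNAs of the locus list, which made up 18.8% of the miRNAs compared. miR-382-3p is counted for both miR-323 and miR-134, and miR-323-5p is the other arm of a member's hairpin. With TMM scaling the coefficients of the 3 beside miR-134 were 0.42, 0.61 and 0.52 in the order given, and those of the other 12 lay between 0.85 and 0.996.

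Both arms of the hairpin of miR-409-5p were read, in a ratio that differed between samples. The hairpin is shown 5′ to 3′ because both strands come from one precursor, the 5′ and 3′ arm products in capitals.
Mir409: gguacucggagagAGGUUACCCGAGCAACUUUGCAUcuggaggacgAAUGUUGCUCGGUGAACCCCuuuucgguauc
The 3′ arm product, rno-miR-409a-3p, was highest in the early samples, at 489 TPM (E10) and 504 TPM (E13). It then held 92.5 TPM at E17, 67.9 and 79.4 in the P0 samples, 118 at P3, and 150, 159 and 78.2 TPM at P7, P14 and P28. The 5′ arm over the 3′ arm was 0.270 at E10 and 0.461 at E13, between 0.594 and 1.492 in the middle samples, and 1.497, 2.99 and 11.1 at P7, P14 and P28. The 3 late samples thus lay above the 6 others, P7 only just above P0 replicate 1. In run 2 they did not, since P7 (0.633) lay below P3 (0.651). The arms were not counted alike, as tags up to 3 nt past the RefSeq end were allowed for miR-409a-3p but not for miR-409-5p. With such tags miR-409-5p was at 60.7 TPM in P0 replicate 2 and 897 TPM at P28. The order of P7 and P0 replicate 1 is therefore not settled. On the log2 scale (pseudocount of 1 TPM) the late mean was 1.87 ± 1.46 (SD, n = 3) and that of the other 6 was -0.57 ± 0.89 (SD), a difference of 2.45. The exact two-sided permutation p was 0.0119, the smallest that 84 regroupings allow, and 0.17 after adjustment over 73 hairpins. Of those 73, 12.3% had an unadjusted p under 0.05 and none passed after adjustment. Run 1 gave higher ratios than run 2 in every sample (21.2 and 3.85 at P28), while within each run P28 had the highest ratio and E10 the lowest. Without P28 the difference was 1.65 (exact p = 0.071). In the edgeR fit miR-409a-3p differed by 0.22 from middle to late (adjusted p = 0.75) and by -0.79 from early to late (adjusted p = 0.26).

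**Figure D3:**
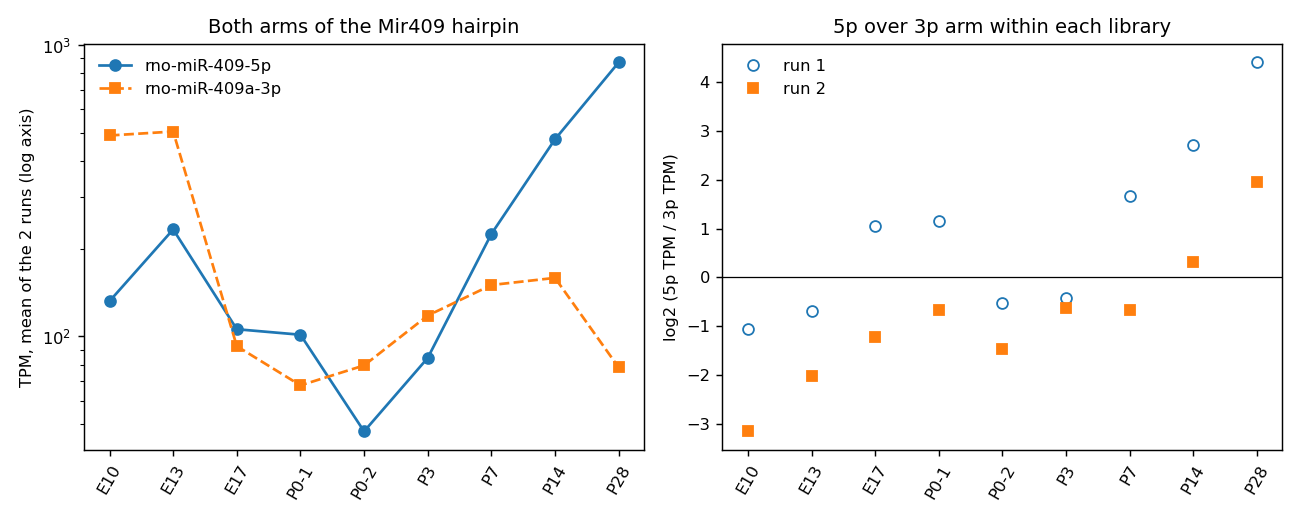
Left, both arms of the Mir409 hairpin in TPM (log axis, mean of the runs) by tissue sample, and right, log2 of the 5p over the 3p arm in each library. The 3p arm is above the 5p arm at E10 and E13, and the 5p arm is 11.1-fold above the 3p arm at P28.

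The other arms of the remaining hairpins were minor. miR-323-5p averaged 92.4 TPM, and miR-323 had 20.1 times as many reads over all libraries. Its level rose by 1.95 (log2) from middle to late (SE 0.56, adjusted p = 0.020) and by 2.68 from early to late (SE 0.75, adjusted p = 0.010), up to 258 TPM at P28. The 5p over 3p ratio of this hairpin differed between late and other samples by 0.85 (log2, exact permutation p = 0.095, adjusted 0.40). miR-494-5p averaged 2.28 TPM and had 482 reads in all libraries. Like miR-494, it was highest at E13 (8.12 TPM) and fell from early to late, by 1.88 on the log2 scale (SE 0.72, adjusted p = 0.043). miR-134-3p averaged 0.501 TPM and did not pass in any contrast. The 5′ arm of miR-127 was not analysed here.

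The rest of the locus gives the setting of the 5. A list of miRNAs by their numbers covered 46 hairpins and 85 mature sequences on the plus strand, and 83 of these were tested, 78 besides the members. These 78 include the other arms of member hairpins (miR-134-3p, miR-323-5p, miR-409a-3p and miR-494-5p). The arms of a hairpin were counted apart, so the 78 are not separate units. From middle to late samples 14 of the 78 rose and none fell, with a median of 0.87 (log2) against -0.22 over all miRNAs, of which 12.6% rose and 17.4% fell. At an unadjusted p under 0.05, 25 of the 78 were higher and 1 lower (94 and 111 of all 477). DESeq2 called 24 higher (30.8%, against 18.9% of all) and none lower (20.3% of all). In run 1 alone 3 of 73 rose (4.11%, against 6.38% of all miRNAs) and none fell. From early to middle 6 of 78 fell and none rose in edgeR, which is 7.69% against 12.4% of all that fell and 10.9% that rose. At an unadjusted p under 0.05, 10 were lower and 3 higher (81 and 76 of all 477). DESeq2 called 10 lower (12.8%, against 15.3% of all) and none higher (11.9% of all). Without TMM 29 of the 78 were lower (37.2%, against 43.4% of all). From early to late 15 rose (19.2%, against 20.5% of all) and 5 fell (6.41%, against 26.8%), with a median of 1.07 against -0.12 over all. Without TMM this split turned to 2 higher and 14 lower (median 0.07, against -1.12 over all), where 9.64% of all were higher and 43.6% lower. In run 1 alone it was 1 higher and 3 lower of 73, with a median of 0.43 (8.43% and 18.7% of all). Late minus middle without TMM gave 21 higher (26.9%, against 18.9% of all) and none lower (8.81% of all). By position, the 6 tested neighbours opposite Rtl1, the group of miR-127, had a late minus middle median of 1.35 with 3 that rose (0.67 with none called in run 1 alone), and the 59 tested sequences of the large cluster had 0.92 with 11 that rose (0.82 with 3 of 54 in run 1 alone). Of the 10 between Meg3 and Rtl1 none passed in edgeR or DESeq2, with none at an unadjusted p under 0.05 in edgeR and 1 in DESeq2, and a median of 0.62.

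Reads of the whole list summed to 28780 TPM at E10 and 37726 at E13, to between 8710.01 and 20922 TPM in the middle samples and to 40001, 48529 and 35602 TPM at P7, P14 and P28. The 5 members made up 18.3% to 38.0% of that sum, and miR-127 alone 48.7% to 79.7% of the members' reads. The most abundant others were miR-382-3p (mean 4303 TPM), miR-411-5p (3161), miR-433-3p (2078), miR-434-3p (1009) and miR-379-5p (794). Of these, miR-379-5p (1.97, adjusted p = 0.018), miR-434-3p (1.65, adjusted p = 0.034) and miR-433-3p (1.39, adjusted p = 0.042) rose from middle to late on the log2 scale. miR-411-5p was at 1.56 (adjusted p = 0.060) and miR-382-3p at 0.89 (adjusted p = 0.16). The largest rises from early to late were those of miR-666-5p (2.73), miR-485-5p (2.69) and miR-323-5p (2.68). The largest falls were those of miR-1193-5p (-3.03), miR-431 (-2.20) and miR-1193-3p (-2.13), all with mean levels under 13 TPM. Thus miR-494, at -2.94, was not alone in the locus in falling from early to late.

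**Figure D4:**
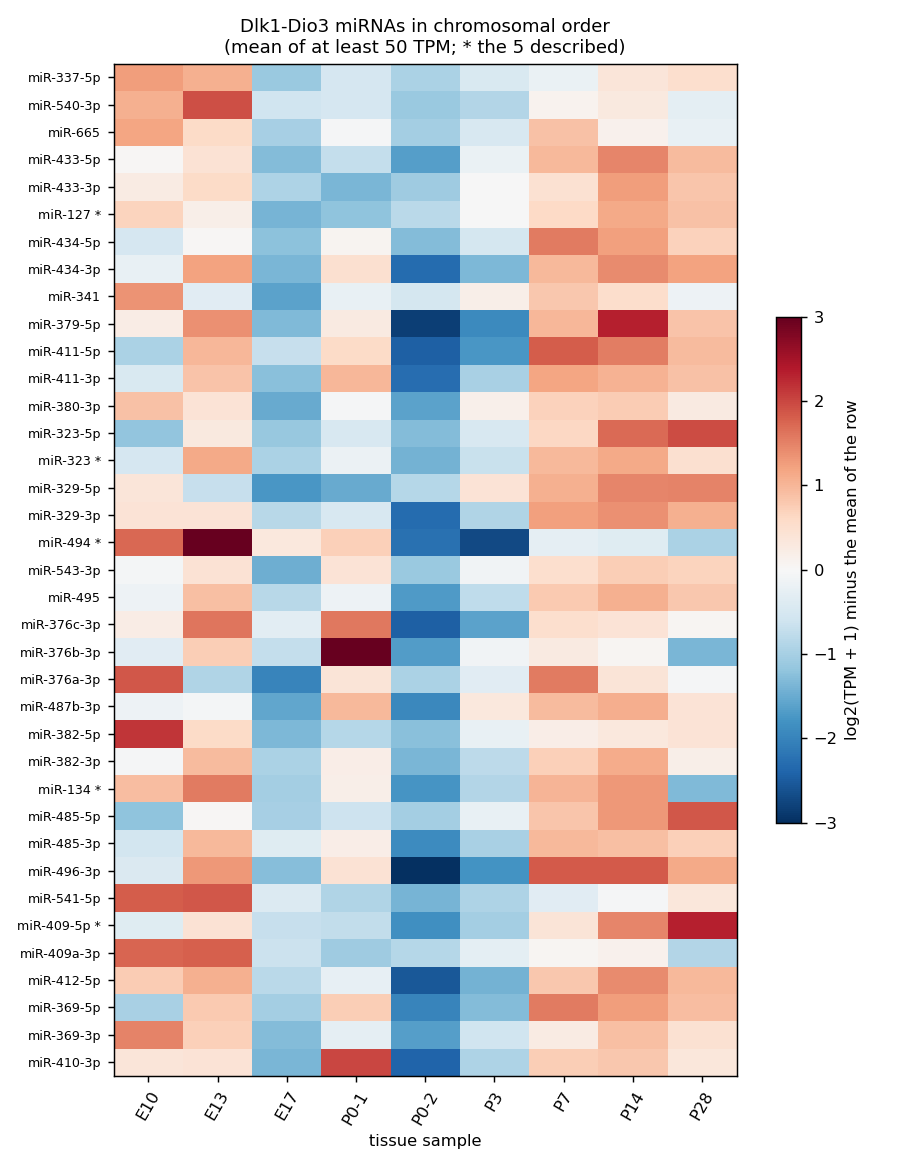
The 37 miRNAs of the locus with a mean of at least 50 TPM in chromosomal order (rows), as log2(TPM + 1) less the mean of the row in each tissue sample (columns), with the 5 members starred. miR-494 and miR-409a-3p are among the rows that are highest at E13, and miR-409-5p is highest at P28.

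The reads behind these levels ended at different bases. The most frequent tags are shown in DNA letters for miR-127, with additions at the 3′ end, and miR-323, with a shifted start. Capitals mark the bases that form the seed of the RefSeq sequence. In the tag with the earlier start they are therefore not the tag's own seed.
miR-127, as RefSeq, 39.3% of its reads: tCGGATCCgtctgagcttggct
miR-127, longer, 23.2%: tCGGATCCgtctgagcttggctat
miR-323, shorter, 58.4%: cACATTACacggtcgacct
miR-323, earlier start, 21.1%: gcACATTACacggtcgacct
The last bases of the longer miR-127 tag are not in the hairpin, and only 46.2% of miR-127 reads matched the hairpin over their whole length. Reads past the RefSeq 3′ end made up 48.2% (E17) to 59.5% (P28) of miR-127. In miR-323 the RefSeq sequence itself was 1.77% of reads, at 44.9% in run 2 of E10 and 0.264% to 0.954% in the other 17 libraries. In all, 30.0% of miR-323 reads began upstream of the RefSeq start, which shifts the bases at seed positions. The other members began at the RefSeq base in 96.5% (miR-134), 99.1% (miR-409-5p) and 97.3% (miR-494) of reads, and miR-127 in 96.6%. miR-134 reads were mostly shortened at the 3′ end (78.5%), including an 18 nt form, the shortest length that the files hold, at 18.1%. miR-409-5p ended at the RefSeq base in 68.1% of reads. Tags were counted up to 3 nt past the sequence used, which for miR-409-5p is the RefSeq end, so none longer could appear for it.

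The run 2 library of E10 differed from the other 17 in these ends. In it 91.5% of miR-323 reads ended at the RefSeq base, against 0.277% to 1.93% in the others, run 1 of the same E10 tissue included (1.02%). For miR-494 the share was 86.6% against 4.32% to 33.5%, and for miR-134 it was 34.4% against 0.958% to 13.7%. miR-409-5p (73.8% against 55.01% to 79.01%) and miR-127 (42.5% against 34.4% to 48.2%) lay within the range of the others, but reads of miR-127 that ended before the RefSeq base were fewer there, at 1.51% against 3.33% to 11.5%. Starts upstream of the miR-323 RefSeq base were also most frequent there, at 49.7% against 23.8% to 35.9%. With E10 taken from run 1 alone, the slopes of miR-127 (0.34, adjusted p = 0.010), miR-409-5p (0.33, adjusted p = 0.014) and miR-494 (-0.53, adjusted p = 0.0095) passed as before, whereas late minus middle of miR-127 was 1.23 with adjusted p = 0.051 and that of miR-323 was 1.25 with adjusted p = 0.045.

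**Figure D5:**
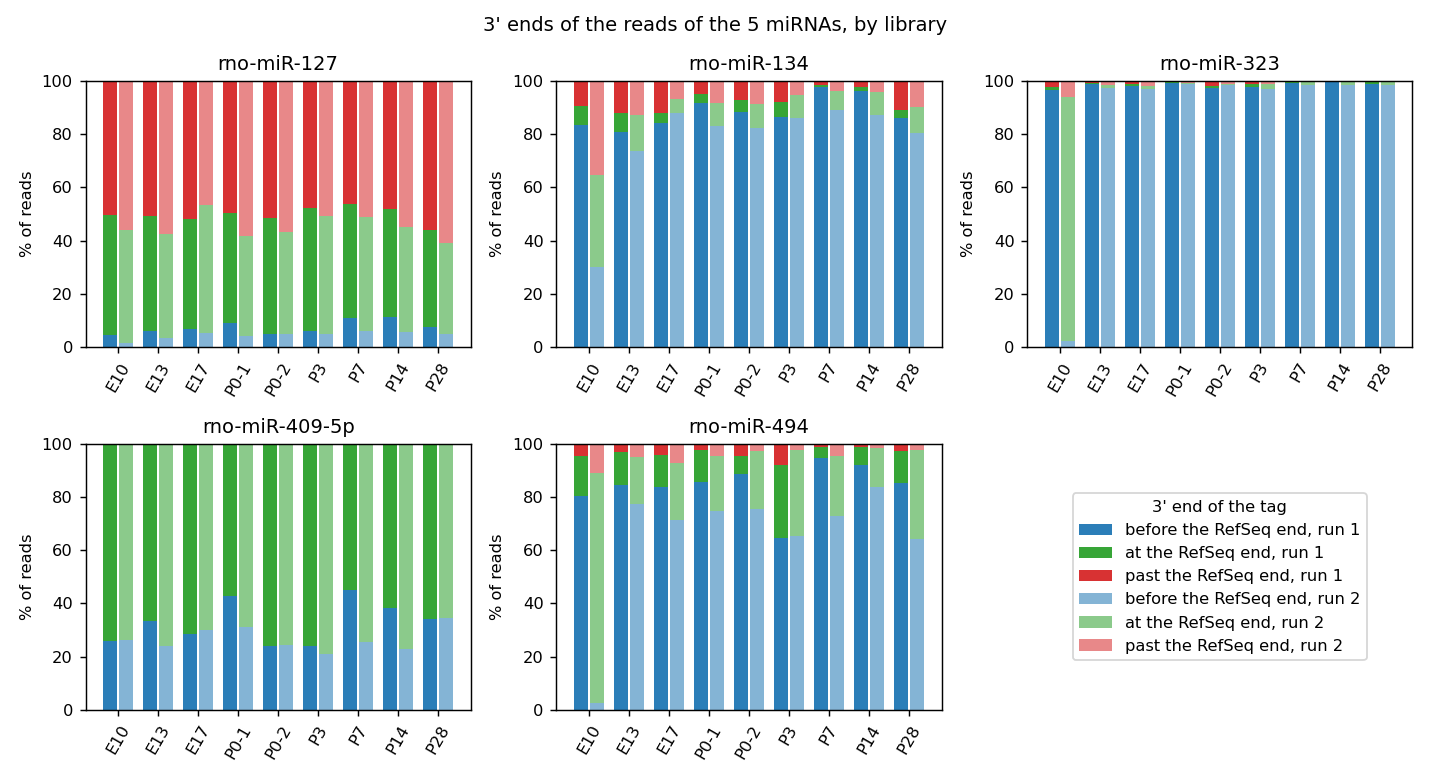
Share of the reads of each miRNA that end before, at or past the RefSeq 3′ end in each library, with run 1 as full and run 2 as pale bars. The pale E10 bar stands apart for miR-134, miR-323 and miR-494, where 91.5% of miR-323 reads end at the RefSeq base.

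Reads with a single changed base were few. Positions were counted from 1 at the 5′ end of the mature sequence, over tags that start there. Changed reads made up 2.85% (miR-127), 3.14% (miR-134), 3.79% (miR-323), 3.93% (miR-409-5p) and 2.41% (miR-494) of the reads in all libraries, and the most frequent single change was T4G of miR-409-5p at 0.361%. For miR-127, miR-134, miR-323 and miR-494 the share was highest at P28, between 3.70% and 5.62%. A-to-G changes, the kind that adenosine deaminases leave, were 0.0940% of miR-127 reads and 0.134% of miR-134 reads. In miR-494 they were 0.589%, with A11G the most frequent change. By sample this share of miR-494 ran from 0.303% at E10 to 1.80% at P7 and 2.55% at P28, the last from 24 reads. The P28 runs gave 3.79% (95% Wilson interval 2.41 to 5.91) and 1.28% (0.589 to 2.77), and P14 gave 0.765%, so that the late samples did not stand together. Sequencing error was not separated from changes in the RNA.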

How the data were processed

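Small RNA (16 to 35 nt per the labels) from 9 rat tissue samples was sequenced on the Illumina Genome Analyzer II in 2 runs each. The authors trimmed adapters, removed low-quality reads and contaminants and collapsed identical reads, and deposited for each library the unique tags with their raw read counts, of 18 to 30 nt in run 1 and 18 to 39 nt in run 2. Cleaning tools are not given in the sources used here. The tag length deposited beside each count was used only to check the sequence.

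Tags were assigned to a miRNA if no base differed over the stretch shared with it, and if they started within 3 nt of its 5′ end and ended at most 3 nt past its 3′ end. The members' sequences were those of the study's primers (20 bases for miR-409-5p, 21 for miR-494, 22 for miR-134) or were found in RefSeq from its list of nucleotide changes (miR-127, miR-323). All other sequences came from RefSeq (GRCr8, 692 unique). No member read fitted another miRNA, and 2.09% of all counted reads did. TPM was the count over the total clean reads of the library, times 1000000. Intervals and floors cover counting error only.

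Counts of both runs were summed per tissue sample, kept at 10 or more reads in 2 or more samples (477 miRNAs), and fitted in edgeR 4.0.16 with TMM, as a slope over 8 stages and as 3 period means, with adjusted p under 0.05 as the threshold. Residual spread comes from different stages within a period, since only P0 had 2 independent samples. In simulated counts of 477 miRNAs, 200 were changed by 2 (log2) in the late samples. From middle to late 163 of them were recovered and 7 others were called wrongly. The simulation gave all miRNAs the same dispersion and no shift in scale between samples, whereas TMM factors of the data ran from 0.53 to 2.61. It therefore does not give the power of the real design. Arm ratios used exact permutation of late against other samples. DESeq2, other scalings, filters, runs and tags, and omission of each sample, were alternatives. The members, the locus list and the other named miRNAs (the other arms, the 5 most abundant of the list, the 3 largest changes in each direction and the 3 nearest by correlation) were chosen with earlier results of these data known.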

Additional observations from a re-analysis of the deposited data

How the results depend on the processing

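The slope of miR-409-5p and its middle to late rise passed under all alternatives that gave a value other than omission of P28 for the latter (identical tags left too few reads of it to test), and miR-494 kept its direction in all 4 comparisons. All values are log2 differences (slopes per stage), and the cause of a change was not tested unless the alternative itself shows it. Without TMM, the slope was 0.13 for miR-127 (call lost) and -0.12 for miR-134, middle minus early was -1.29, -2.06, -1.20 and -1.09 for miR-127, miR-134, miR-323 and miR-409-5p with 219 miRNAs called (207 lower, against 59 of 111 with TMM), late minus middle of miR-323 was 1.70, and late minus early was 0.50, -0.74 and 1.45 for miR-127, miR-134 and miR-409-5p. Run 1 alone gave slopes of 0.24 (miR-127) and -0.52 (miR-494), middle minus early of -0.48, -0.15 and -2.72 (miR-323, miR-409-5p, miR-494), late minus middle of 0.63 (miR-127), late minus early of 1.14, 2.16 and -2.94 (miR-127, miR-409-5p, miR-494), so that all calls of members were lost but the slope and middle to late rise of miR-409-5p, and 118, 39, 78 and 119 miRNAs called in the 4 comparisons, against 204, 111, 143 and 226. Run 2 alone gave a slope of -0.018 for miR-134, middle minus early of -0.28, -0.19 and -0.13 (miR-127, miR-323, miR-409-5p) and late minus early of 1.30 (miR-127) and -0.24 (miR-134). Tags found in both runs gave 0.24, 1.16 and 1.22 for slope, late minus middle and late minus early of miR-127, -0.11 for middle minus early of miR-323 and -0.0159 for late minus early of miR-134. Tags that start at the mature base gave 0.25, 1.13 and 1.23 for miR-127, a slope of -0.0060 and late minus early of -0.0546 for miR-134, and -0.0447 for middle minus early of miR-323. Identical tags alone gave slopes of -0.15, -0.14 and -0.46 (miR-134, miR-323, miR-494), middle minus early of -1.88, -2.39 and -2.14, late minus early of -1.04, -0.99 and -2.69, 65 miRNAs called from middle to late, and an arm difference of 0.15 for Mir409, as they count for miR-409-5p only the 20 bases of the primer. The study's own sequences in place of RefSeq, with fewer miRNAs tested, gave slopes of 0.43 (miR-323) and -0.32 (miR-494), -1.74 and -2.10 for middle minus early and late minus early of miR-494, late minus middle of 1.74 for miR-127, and 53, 20, 22 and 56 called. DESeq2 gave -0.20 for middle minus early and 1.37 for late minus middle of miR-323, and no filter gave -0.0039 for its middle minus early. From middle to late, DESeq2 and the fit without TMM each called 3 of the 5 members higher, against 2 in the main fit. Alternatives chosen after seeing the data were RefSeq mature ends (miR-127 0.26, 1.11 and 1.30, miR-323 middle minus early -0.0416), E10 from run 1 alone (miR-134 slope -0.0167 and late minus early -0.10, miR-323 middle minus early -0.32 and late minus middle 1.25, miR-409-5p middle minus early -0.38, miR-127 late minus middle 1.23) and P0 replicate 1 from run 2 alone, which changed no call. With single samples left out, slopes ranged from 0.23 to 0.34 (miR-127), -0.083 to 0.149 (miR-134), 0.16 to 0.43 (miR-323) and -0.61 to -0.26 (miR-494). Middle minus early ranged from -0.21 to 0.42 (miR-127), -0.99 to 1.68 (miR-323), -0.56 to 1.14 (miR-409-5p) and -3.28 to -0.49 (miR-494) with 34 to 135 called. Late minus middle ranged from 0.87 to 1.51 (miR-127), 1.06 to 1.47 (miR-323) and 1.45 to 2.28 (miR-409-5p) with 54 (without P28) to 169 called. Late minus early ranged from 1.18 to 1.59 (miR-127), -0.49 to 0.89 (miR-134), 0.33 to 2.93 (miR-323), 1.54 to 3.18 (miR-409-5p) and -3.90 to -1.18 (miR-494) with 110 (without E10) to 236 called. The median pairwise correlation was 0.58, and 0.43 in run 2, 0.29 with TMM scaling, 0.50 with identical tags and 0.50 to 0.71 with single samples left out. The arm difference ranged from 1.65 to 3.09 for Mir409 and from 0.39 to 1.31 for Mir323. Of 315 member levels under other counts, runs or scales, 251 moved by less than the SD between the 2 runs.

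With the run number as a replicate block (limma, tissue samples as correlated blocks), miR-127 had 1.09 from middle to late and 1.21 from early to late, neither past the threshold, and miR-134 had a slope of -0.0498 and -0.27 from early to late. No other call of a member changed. Run differences correlated above 0.1 in 35 of 36 pairs of tissue samples, and the runs are technical, so the number is not read as pairing. Levels under about 100 reads, as for miR-494 at P3 and P0 replicate 2 in run 1, are limited by depth, and 1 tissue sample at 7 of the 8 stages limits all tests.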
